A study of Mus musculus with 13 samples.

Results

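The 9 genes Pax6, Pax3, Sox1, Sox11, Nes, Neurog2, Hes5, Zic1 and Tubb3 mark the neuroectoderm and the neural progenitors that form from it. They were taken by gene symbol, without regard to their values, from a table of 25965 genes measured by RNA-seq in differentiating female mouse embryonic stem cells (mESCs). Each symbol matched 1 row. The question was when these genes came on after the cells left the naive state, and whether their levels differed once Smarcc1 was knocked down.

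The cells were F1 hybrids of an FVB/NJ mother and a CAST/EiJ father, kept undifferentiated in 2i medium with LIF. Differentiation was undirected, by weaning the cells into serum medium without these factors, so no neural fate was selected. Day0 was 1 library of undifferentiated cells that received no hairpin. On days 4, 5, 6 and 7 there was 1 library with the nonsilencing hairpin (Nons), 1 with the hairpin Smarcc1.6 and 1 with the hairpin Smarcc1.7, each carried by a retrovirus that was added on day 2 and selected with puromycin from day 3. The Smarcc1 protein is part of the core of BAF, a nucleosome remodelling complex, and the labels call both hairpins Smarcc knockdown.

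The neural plate arises from epiblast cells that lose the pluripotent state without turning to mesoderm or endoderm. Sox1 is among the earliest markers of the plate, Pax6, Pax3 and Zic1 pattern it along its dorsal to ventral axis, and Sox11 acts as cells commit to the neuronal lineage. Hes5, a target of Notch, keeps progenitors dividing, whereas Neurog2 drives them towards neurons. Nes (nestin) is the intermediate filament of progenitors and Tubb3 the tubulin of young neurons, although both are also made outside the nervous system.

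The hairpins define the comparison, so their guide strands are shown 5′ to 3′ with the seed, bases 2 to 8, in capitals.
Nons: cTTACTCTcgcccaagcgagag
Smarcc1.6: tGTAACTGcttcttcatcctgc
Smarcc1.7: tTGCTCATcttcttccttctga
The Smarcc1.6 guide matched all 22 bases of chr9:110177472-110177493 (GRCm38, which is mm10, plus strand), in coding exon 13 of 29 of Smarcc1. The Smarcc1.7 guide matched 22 bases of chr9:110173911-110173932, in coding exon 11 of the same transcript. Among all GENCODE M21 transcripts each of these guides matched 1 gene, Smarcc1, and the Nons guide matched 0 genes, so none had such a site in the 9 genes. The transcripts are those of the reference strain, not of FVB/NJ or CAST/EiJ.

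Reads per gene were deposited as log2 CPM, the log2 of read counts scaled to the mapped reads of a library (CPM), and whole reads could be recovered from the steps of these values. The shallowest library (Smarcc1.7 on day 5) had 13993440 mapped reads and the deepest (Smarcc1.6 on day 4) 63548092. In Day0 and the 3 libraries of day 6, genes took 85.3% to 86.5% of reads, while the other 9 libraries had 91.6% to 92.6%, so differences between day 6 or Day0 and other days carry this gap and were not tested. Hairpin and Nons were compared within a day, and leaving out day 6 is given where it matters. Smarcc1 itself was lower than same-day Nons in 8 of 8 comparisons, by 1.06 on the log2 scale (SE 0.14, adjusted p = 0.00232). That value averages the days, and with each hairpin the difference was smallest on day 7. It was -1.68 on day 4 and -0.61 on day 7 with Smarcc1.6, and -1.14 and -0.38 with Smarcc1.7. Its change was 0.30 per day (95% interval 0.09 to 0.50, adjusted p = 0.104 in limma). The part of this in the differences of the 9 genes between days was not tested.

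Of the 9 genes, 5 had log2 CPM averaging 0 or more in the 12 libraries after Day0 and were tested among 13406 genes (Pax6, Sox1, Sox11, Nes and Tubb3). The other 4 (Pax3, Zic1, Hes5 and Neurog2) did not exceed 31 reads in any library. They are described by reads, since the table gives 0.9 reads in place of 0. The tests used limma on log2 CPM with day as a factor and Benjamini-Hochberg adjustment over all tested genes. With 1 library per group and day, they measure the spread of these libraries around the day effect. In bulk RNA, fewer cells that express a gene and less RNA per cell cannot be told apart.

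**Figure D1:**
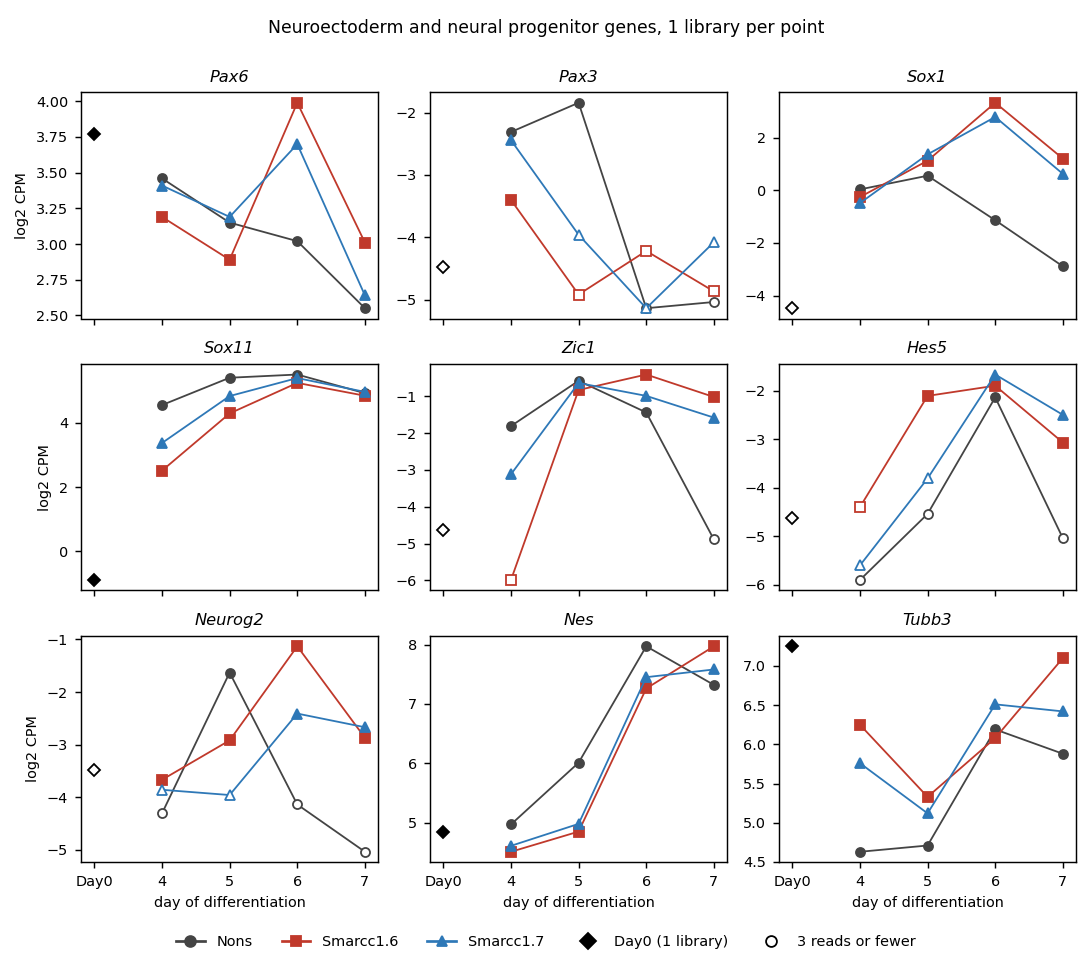
Log2 CPM (vertical axes, each panel on its own scale) of the 9 genes in 1 undifferentiated library (Day0, diamond) and on days 4 to 7 with the Nons, Smarcc1.6 and Smarcc1.7 hairpins, 1 library per point. Open symbols mark 3 reads or fewer, and Sox1 is seen to fall to 4 reads in Nons on day 7 while the hairpin libraries hold 135 and 78.

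Sox1, a SoxB1 transcription factor of the early neural plate (chr8:12395295-12400126 in mm10, plus strand, protein coding), was read more often on day 4 than at Day0 in each group and was almost gone by day 7 in Nons. Day0 had 1 read. In Nons there were 61, 68, 16 and 4 reads on days 4, 5, 6 and 7, which are log2 CPM of 0.03, 0.55, -1.14 and -2.89. With Smarcc1.6 there were 53, 66, 373 and 135 reads (-0.26, 1.12, 3.32 and 1.20), and with Smarcc1.7 31, 36, 219 and 78 reads (-0.49, 1.36, 2.78 and 0.62). The highest level was thus reached on day 5 in Nons and on day 6 with each hairpin.

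On day 4 the Sox1 level was 0.815 of that in Nons with Smarcc1.6 (95% counting interval 0.553 to 1.2) and 0.696 with Smarcc1.7 (0.437 to 1.09). Day 6 showed a level with Smarcc1.6 that was 22 times that in Nons (13.4 to 39) and with Smarcc1.7 15.2 times (9.12 to 27). For day 7 these ratios were 17.1 (6.51 to 63.5) and 11.4 (4.28 to 42.8). The intervals cover counting error only. Both hairpins therefore lay close to Nons on day 4 and far above it on days 6 and 7, and day 5 lay between, at 1.49-fold (1.04 to 2.12) and 1.76-fold (1.14 to 2.67).

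Sox1 passed the filter only through its hairpin libraries, so its calls in knockdown are of a gene admitted by the group where it was high. Over the 4 days Sox1 was higher in knockdown by 2.07 on the log2 scale (SE 0.61, 95% interval 0.74 to 3.40, adjusted p = 0.0478), higher in 6 of 8 same-day comparisons. This call held in 6 of 24 alternative fits. It was lost without the Nons library of day 6 (1.36, adjusted p = 0.209) or of day 7 (1.49, adjusted p = 0.146), and without the libraries of day 6 the change was 1.36 with an adjusted p of 0.265. The difference between knockdown and Nons itself changed with day, by 1.61 log2 units per day (SE 0.27, 95% interval 1.02 to 2.21, adjusted p = 0.00981), and without day 6 by 1.43 (adjusted p = 0.00883). It was not called without the Nons library of day 4 (1.55, adjusted p = 0.0971), on log2(CPM + 1) (0.69, adjusted p = 0.128), or with day entered as a number (1.61, adjusted p = 0.904). The last fit was added after seeing the data and has a straight line over the days in place of 1 level per day.

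The day 7 Nons library, with 4 reads of Sox1, was also the one in which markers of mesoderm and endoderm stood highest. The summed level of the mesoderm list was 396 CPM there, against 108 and 67.1 CPM in the hairpin libraries of that day, and that of the endoderm list 33.5 CPM against 13.7 and 12.1. It was the shallowest library of day 7, with 29667077 reads. The part of these differences in the Sox1 values was not tested. The Sox1 row lies within the noncoding gene Sox1ot on the same strand, without shared exons, and covers 86 exonic bases of the miRNA gene Gm25239.

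Sox11, a SoxC factor of committed neural precursors (chr12:27340697-27342709, minus strand, protein coding), was scarce in undifferentiated cells and reached its level later with the hairpins than in Nons. It had 12 reads at Day0, a log2 CPM of -0.89. The 4 Nons libraries had a log2 CPM of 4.55, 5.40, 5.50 and 4.92 on days 4, 5, 6 and 7. Smarcc1.6 gave 2.51, 4.29, 5.24 and 4.84, and Smarcc1.7 gave 3.37, 4.83, 5.39 and 4.96. On day 4 the 3 groups were far apart, and on day 7 they lay within 0.12 of each other.

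Relative to Day0, Sox11 on day 4 was 43.5-fold in Nons (95% counting interval 24.8 to 84.4), 10.6-fold with Smarcc1.6 (6 to 20.7) and 19.2-fold with Smarcc1.7 (10.9 to 37.4). The same-day difference of Smarcc1.6 from Nons was -2.04 on day 4, -1.10 on day 5, -0.26 on day 6 and -0.08 on day 7. For Smarcc1.7 it was -1.18, -0.57, -0.11 and 0.04. The gap thus narrowed on each successive day with both hairpins. Its change was 0.54 per day (SE 0.13, 95% interval 0.25 to 0.84, adjusted p = 0.0473), a call that held in 5 of 24 alternative fits. Without the Nons library of day 4 the change was 0.41 per day (adjusted p = 0.375).

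Averaged over the 4 days the Sox11 difference was -0.66 (SE 0.23, 95% interval -1.17 to -0.16, adjusted p = 0.0836), lower in 7 of 8 comparisons and not past the threshold. It was past it without the Nons library of day 7 (-0.88, adjusted p = 0.0397). With Smarcc1.6 alone it was -0.87 (adjusted p = 0.0538) and with Smarcc1.7 -0.45 (adjusted p = 0.324). Over all groups Sox11 rose from day 4 to day 5 by 1.36 (SE 0.29, adjusted p = 0.00549), and this was called in 20 of 20 alternative fits. The row spans 2013 bases and holds 22.6% of the exonic bases of Sox11 in GENCODE M21, so most of the transcript was not counted.

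The 250 bases before the RefSeq start of Sox11 (GRCm38.p6, chr12:27342719-27342968, minus strand) are shown 5′ to 3′ because Sox11 was the member called higher from day 4 to day 5. The capitals mark the E-box CAGCTG, a motif bound by basic helix-loop-helix factors.
Sox11: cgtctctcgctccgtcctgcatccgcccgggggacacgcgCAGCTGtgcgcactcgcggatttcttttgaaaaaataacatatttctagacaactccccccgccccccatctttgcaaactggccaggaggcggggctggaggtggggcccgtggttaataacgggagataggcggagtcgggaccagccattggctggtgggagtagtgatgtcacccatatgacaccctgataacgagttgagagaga
RefSeq windows were matched for 8 of the 9 genes, and on either strand the E-box was found in 1 of the 8, Sox11. It was found in 13% of 32851 windows of the same length. CCAAT was found in 6 of the 8 (Hes5, Pax6, Sox1, Sox11, Tubb3 and Zic1), against 33.8% of all windows, and TATAAA in 0 of the 8, against 12.4%. Pax3 was not among the windows used. These matches describe letters only.

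Pax6, a paired-box factor of neural progenitors and the eye (chr2:105668896-105703160, plus strand, protein coding), did not come on during these days. Its log2 CPM was 3.77 at Day0. From day 4 onwards Nons gave 3.46, 3.15, 3.02 and 2.55, Smarcc1.6 gave 3.19, 2.89, 3.99 and 3.01, and Smarcc1.7 gave 3.41, 3.19, 3.70 and 2.64. In 11 of the 12 later libraries the level lay under that of Day0, the exception being Smarcc1.6 on day 6.

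From day 4 to day 7 Pax6 fell by 0.62 (SE 0.22, 95% interval -1.12 to -0.13, adjusted p = 0.0263). The call held in 16 of 20 alternative fits and was lost without the Nons library of day 4 (-0.46, adjusted p = 0.116) or of day 7 (-0.59, adjusted p = 0.0643), and without the Smarcc1.7 library of day 4 (-0.62, adjusted p = 0.0697) or of day 7 (-0.53, adjusted p = 0.104). The difference between knockdown and Nons was 0.21 (SE 0.16, 95% interval -0.14 to 0.56, adjusted p = 0.437), and its change per day was 0.22 (95% interval -0.06 to 0.50, adjusted p = 0.39). On day 6 Pax6 was higher than in Nons by 0.97 with Smarcc1.6 and by 0.68 with Smarcc1.7, and on day 7 by 0.46 and 0.09. The Pax6 row overlaps the antisense gene Pax6os1 and the gene Elp4 on the opposite strand, without shared exons, and whether counting used strand is not given in the sources used here.

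Pax3, the paired-box factor of the dorsal neural tube and neural crest (chr1:78101267-78197134, minus strand, protein coding), was near the limit of detection. It had 1 read at Day0, 12, 13, 1 and 0 reads in Nons on days 4 to 7, 6, 1, 2 and 2 with Smarcc1.6, and 8, 0, 0 and 3 with Smarcc1.7. Reads above 3 were seen on day 4 in each group and on day 5 in Nons only. On day 5 the level with Smarcc1.6 was 0.118 of that in Nons (95% counting interval 0.00277 to 0.784), and with Smarcc1.7 it was at least 1.31-fold lower, taking 3 reads as the floor of that library. In a fit without the filter Pax3 was 1.95 lower on day 7 than on day 4 (adjusted p = 0.0362). Of 25965 genes, 21.9% were called lower in that fit, and the estimate depends on the value written for 0 reads.

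Zic1, a zinc finger factor of the dorsal neural plate (chr9:91358058-91365810, minus strand, protein coding), had 0 reads at Day0 and few later. Nons had 17, 31, 13 and 1 reads on days 4 to 7, Smarcc1.6 1, 17, 28 and 29, and Smarcc1.7 5, 9, 16 and 17. The order of the groups thus turned over between day 4, when Nons was highest, and day 7, when it was lowest. On day 4 Zic1 with Smarcc1.6 was 0.0552 of Nons (95% counting interval 0.00132 to 0.352) and with Smarcc1.7 0.403 (0.116 to 1.14). On day 7 it was 14.7-fold (2.43 to 599) and 9.93-fold (1.56 to 415) that in Nons, intervals that are wide because Nons had 1 read. Without the filter the difference changed by 1.99 per day (SE 0.46, adjusted p = 0.0268), where 1.49% of the 25965 genes were called in this direction. That fit takes no account of counting error, although Smarcc1.6 on day 4 and Nons on day 7 had 1 read each. It was not checked in alternative fits. The row shares 60 exonic bases with Zic4 on the opposite strand.

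Hes5, a basic helix-loop-helix repressor downstream of Notch (chr4:154960923-154962371, plus strand, protein coding), had 0 reads at Day0 and at most 10 in a library. It had 1, 2, 8 and 0 reads in Nons on days 4 to 7, 3, 7, 10 and 7 with Smarcc1.6, and 0, 1, 10 and 9 with Smarcc1.7. Day 6 was the highest day in each group. On day 7, against 0 reads in Nons, the level was at least 1.18-fold higher with Smarcc1.6 and at least 1.75-fold higher with Smarcc1.7. Without the filter, the difference over the 4 days was 1.27 (95% interval 0.22 to 2.32, adjusted p = 0.152). The rise from day 4 to day 7 was 1.76 (adjusted p = 0.0384), where 25.1% of all genes were called higher. Both estimates depend on the value written for 0 reads. In Nons the change from day 4 to day 7 was 0.85, although reads went from 1 to 0. Of its exonic bases, 433 are shared with the antisense gene Gm20421.

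Hes5 is shown because it was the only member whose window held the letters of the RBPJ core GTGGGAA, found in 5.42% of all windows. It had 2 matches, 226 and 83 bases before the start used for the window. They are given here in capitals with flanks, chr4:154960686-154960715 and chr4:154960829-154960858 (GRCm38.p6, plus strand). Both lie inside the RefSeq span of Hes5, which begins at chr4:154960626, so they are not upstream of every annotated start.
Hes5 distal: gggcgagcgcgTTCCCACagcccggacatt
Hes5 proximal: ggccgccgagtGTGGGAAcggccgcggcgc
The first is on the reverse strand. No binding was measured in these libraries.

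Neurog2, the proneural factor that starts neuronal differentiation (chr3:127633136-127635631, plus strand, protein coding), had 2 reads at Day0 and at most 17 in a library. Nons had 3, 15, 2 and 0 reads on days 4 to 7, Smarcc1.6 5, 4, 17 and 8, and Smarcc1.7 3, 0, 6 and 8. The Nons library was highest on day 5 and lowest on days 4, 6 and 7. On day 6 the level with Smarcc1.6 was 8.03-fold that in Nons (95% counting interval 1.91 to 71.7) and with Smarcc1.7 3.32-fold (0.594 to 33.6). On day 7 it was at least 1.35-fold and 1.56-fold higher, against 0 reads. The difference over the 4 days was 0.85 without the filter (95% interval -0.46 to 2.15, adjusted p = 0.565). This estimate too depends on the value written for 0 reads.

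Nes, the intermediate filament protein nestin (chr3:87971078-87980451, plus strand, protein coding), was expressed in undifferentiated cells and, from day 4 to day 7, had the largest change of the 5 tested genes. Its log2 CPM was 4.85 at Day0. From day 4 onwards Nons gave 4.97, 6.01, 7.97 and 7.32, Smarcc1.6 gave 4.51, 4.85, 7.26 and 7.97, and Smarcc1.7 gave 4.61, 4.98, 7.45 and 7.58. The level on day 4 was thus within 0.34 of that at Day0 in each group. The step from day 5 to day 6 was the largest in each group, at 1.95 in Nons, 2.40 with Smarcc1.6 and 2.47 with Smarcc1.7, and it crosses the gap in read assignment.

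From day 4 to day 7 Nes rose by 2.93 (SE 0.25, 95% interval 2.38 to 3.48, adjusted p = 1.92e-06), and from day 5 to day 7, leaving day 6 aside, by 2.34 (adjusted p = 1.81e-05). Both were called in 20 of 20 alternative fits. On days 4, 5 and 6 Nes was lower than in Nons with both hairpins, by 1.16 and 1.03 on day 5, and on day 7 it was higher with both, by 0.65 and 0.26. The difference over the 4 days was -0.41 (SE 0.18, 95% interval -0.81 to -0.02, adjusted p = 0.154), lower in 6 of 8 comparisons. Without the Nons library of day 7 it was -0.70 and was called (adjusted p = 0.00714).

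Tubb3, the class III beta-tubulin of neurons (chr8:123411424-123422015, plus strand, protein coding), followed another course. Its log2 CPM was 7.25 at Day0, above each of the 12 later libraries. Nons gave 4.63, 4.71, 6.19 and 5.88 from day 4 onwards, Smarcc1.6 gave 6.25, 5.33, 6.08 and 7.10, and Smarcc1.7 gave 5.76, 5.12, 6.51 and 6.42. It lay below Day0 in each group, and the lowest later levels were those of Nons on days 4 and 5.

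Tubb3 was higher in knockdown by 0.72 (SE 0.19, 95% interval 0.31 to 1.13, adjusted p = 0.0318), higher in 7 of 8 comparisons and largest on day 4, by 1.62 with Smarcc1.6 and 1.13 with Smarcc1.7. This call held in 13 of 25 alternative fits, and without the Nons library of day 4 the change was 0.50 (adjusted p = 0.0861). Without day 6 it was 0.92 (adjusted p = 0.0416). From day 4 to day 7 Tubb3 rose by 0.92 (SE 0.25, adjusted p = 0.00637) and from day 5 to day 7 by 1.42 (adjusted p = 5.26e-04). The pluripotent list, which like Tubb3 was highest at Day0, summed to 2820 and 2320 CPM with the hairpins on day 4 against 1600 CPM in Nons, and its part in the Tubb3 values was not tested. The gene Gm20388 overlaps the row on the same strand.

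**Figure D2:**
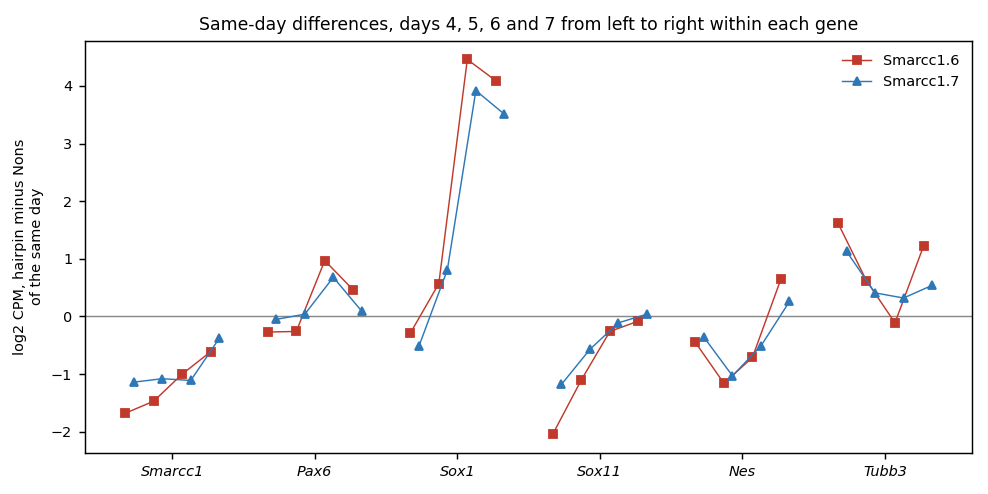
Difference in log2 CPM between each hairpin and the Nons library of the same day (vertical axis) for Smarcc1 and the 5 tested genes, with days 4, 5, 6 and 7 from left to right within each gene. The Sox11 points climb from -2.04 and -1.18 on day 4 to about 0 on day 7, the Sox1 points exceed 3 on days 6 and 7, and the Smarcc1 points lie below 0 throughout.

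Across the tested genes, knockdown against Nons called 2 of the 5 higher (Sox1 and Tubb3) and 0 lower, where 6.88% of all 13406 genes were called higher and 4.77% lower. Sox1 was among the 5 only through its hairpin libraries. For Smarcc1.6 1 of the 5 was called higher (Tubb3, by 0.84, adjusted p = 0.0372, called in 8 of 23 alternative fits) and 0 lower, against 5.59% and 3.71% of all genes. For Smarcc1.7 0 of the 5 were called, against 1.69% higher and 0.768% lower, although each of its estimates had the sign of that for Smarcc1.6. The comparisons share the 4 Nons libraries, so their estimates are not independent.

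Between the hairpins 0 of the 5 genes differed, and of all genes 0% were called by limma (530 genes at an unadjusted p under 0.05). The 95% interval of Smarcc1.6 minus Smarcc1.7 was -1.33 to 1.89 for Sox1, -0.97 to 0.14 for Sox11, -0.49 to 0.47 for Nes, -0.39 to 0.46 for Pax6 and -0.24 to 0.72 for Tubb3. For Sox1 these libraries could therefore not exclude a difference of more than 1 log2 unit in either direction. The Smarcc1 level differed between the hairpins by -0.26 (95% interval -0.60 to 0.08, adjusted p = 0.989).

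Over time, 3 of the 5 genes rose from day 4 to day 7 (Nes, Sox11 and Tubb3) and 1 fell (Pax6), where 40.7% of all genes rose and 31.7% fell. Sox1 changed by -0.12 (95% interval -1.98 to 1.74, adjusted p = 0.907), the groups having moved apart, by -2.92 in Nons, 1.46 with Smarcc1.6 and 1.11 with Smarcc1.7. From day 4 to day 5, 1 of the 5 rose (Sox11) and 0 fell, against 18.9% and 12.1% of all genes. From day 5 to day 7, 2 of the 5 rose (Nes and Tubb3) and 0 fell, against 35.1% and 30.7%. The median tested gene moved by 0.11 from day 4 to day 7, and with each library centred on its median the 4 called changes were 2.71 for Nes, 1.21 for Sox11, 0.70 for Tubb3 and -0.84 for Pax6, each still called.

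The difference between knockdown and Nons rose with day for 2 of the 5 genes (Sox1 and Sox11) and fell for 0, against 2.43% and 1.32% of all genes. It rose towards a higher level than in Nons for Sox1 and towards an equal level for Sox11. Here too Sox1 had passed the filter only through its hairpin libraries. On day 7 the Nons library was the lowest of the 3 for 8 of the 9 genes, and on day 4 it was the highest for 6 of the 9. The day 7 count includes Pax3, at 0, 2 and 3 reads. The order was not counted over all genes, so these counts cannot show a trait particular to the 9. Day 7 holds 1 Nons library, so this order over genes rests on that library.

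**Figure D3:**
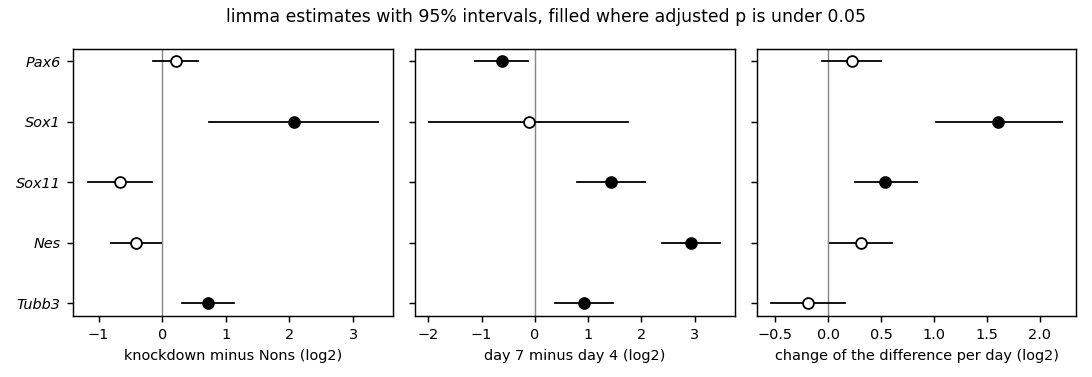
Estimates of limma (points) with 95% intervals (lines) for the 5 tested genes, in log2 units, for knockdown minus Nons, for day 7 minus day 4 and for the change of the knockdown difference per day. Filled points have an adjusted p under 0.05, as for Sox1 and Tubb3 on the left, Pax6, Sox11, Nes and Tubb3 in the middle, and Sox1 and Sox11 on the right.

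As a description, Pearson's r over the 13 libraries named the tested genes most like each member. For Sox1 these were Cyp24a1 (0.959), Ccdc40 (0.941) and Mettl7a1 (0.932). For Sox11 they were Zfp608 (0.989), Klhl7 (0.984) and Psmb10 (0.982), and for Nes Pelo (0.986), Apba2 (0.986) and 5430437P03Rik (0.985). For Tubb3 they were Mesdc2 (0.979), 0610010F05Rik (0.94) and Rab39 (0.93), and for Pax6 Msra (0.91), Pdcd2 (0.894) and Pdzd9 (0.885). Among the 5 genes themselves r was highest for Sox1 with Sox11 (0.664) and lowest for Sox11 with Tubb3 (-0.423), so they did not follow 1 course. The 13 points share their libraries, days and the gap in read assignment.

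The other genes of these lineages were taken from lists that leave the 9 genes out. Of 38 other transcription factors of the neural plate and its progenitors, 17 were tested. In knockdown 3 of the 17 were higher and 1 lower, against 6.88% and 4.77% of all tested genes. The median change of the 17 was 0.12, against -0.01 for all tested genes. Those higher were Sox21 (1.01, adjusted p = 0.028), Sox2 (0.69, adjusted p = 0.00888) and Otx2 (0.61, adjusted p = 0.0167), of which Sox2 and Otx2 are also epiblast genes, and Gli3, a Hedgehog effector, was lower (-0.70, adjusted p = 0.00214). Sox21 had 67, 37, 17 and 13 reads in Nons on days 4 to 7. Like Sox1, it passed the filter only through its hairpin libraries. By day 7, relative to day 4, 6 of the 17 rose and 7 fell, against 40.7% and 31.7% of all tested genes. The largest rises were those of Zfp521 (4.41, adjusted p = 1.02e-05) and the repressor Hes1 (2.15, adjusted p = 5.28e-07).

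Of 16 cytoskeletal, adhesion and Notch genes of progenitors, 15 were tested, and in knockdown 0 were higher and 2 lower, Cdh2 (N-cadherin, -1.01, adjusted p = 0.0324) and the receptor Notch2 (-0.24, adjusted p = 0.0478). The median change of the 15 was -0.11, and of all tested genes 6.88% were higher and 4.77% lower. Relative to day 4, 6 of the 15 rose by day 7 and 4 fell, against 40.7% and 31.7% of all tested genes. The Notch ligand Dll3 (2.57, adjusted p = 6.26e-06) and the receptor Notch3 (2.47, adjusted p = 3.06e-06) rose most. Hes5 stayed at 10 reads or fewer over the same days, whereas Hes1, of the list above, rose by 2.15. The activity of the pathway was not measured.

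Of 33 proneural and neuronal genes, 17 were tested. In knockdown 4 were higher and 1 lower, against 6.88% and 4.77% of all tested genes, and the median change of the 17 was 0.14. Those higher were the proneural factor Neurog3 (4.05, adjusted p = 0.00877), Ebf1 (0.96, adjusted p = 0.0156), Stmn3 (0.95, adjusted p = 0.0175) and Elavl4 (0.84, adjusted p = 0.0309), and the neurofilament gene Nefl was lower (-0.79, adjusted p = 0.0129). Neurog3 had 231, 37, 1 and 0 reads in Nons on days 4 to 7, against 308, 283, 237 and 96 with Smarcc1.6 and 255, 86, 89 and 42 with Smarcc1.7. All groups had 231 or more reads on day 4, and Nons had 1 and 0 reads on days 6 and 7. The size of the Neurog3 change depends on the value written for 0 reads. Like Sox1, Neurog3 passed the filter only through its hairpin libraries. Between days 4 and 7, 5 of the 17 rose and 7 fell, against 40.7% and 31.7% of all tested genes. Syt1 (3.91, adjusted p = 5.50e-06) and Gap43 (2.96, adjusted p = 1.40e-06) rose most.

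Of 12 neural crest genes, 8 were tested. In knockdown 0 were higher and 2 lower, against 6.88% and 4.77% of all tested genes. Those lower were Tfap2a (-0.97, adjusted p = 0.00663) and Twist1 (-0.80, adjusted p = 0.0339), and the median change of the 8 was -0.45. Between days 4 and 7, 3 of the 8 rose and 3 fell, against 40.7% and 31.7% of all tested genes. Ets1 (4.41, adjusted p = 3.12e-08) and Msx2 (2.43, adjusted p = 1.03e-04) rose most.

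The difference between knockdown and Nons changed with day for some genes of these lists, as it did for Sox1 and Sox11. Over all tested genes it rose for 2.43% and fell for 1.32%. Of the 17 transcription factors tested it rose for 4. Sox3, which belongs to the same SoxB1 group as Sox1, rose by 0.72 per day (adjusted p = 0.00602), Hes6 by 0.50 (adjusted p = 0.0251), Pou3f1 by 0.49 (adjusted p = 0.0201) and Sox2 by 0.33 (adjusted p = 0.0284). Of the proneural and neuronal genes it rose for Neurog3 (1.84, adjusted p = 0.0425) and Insm1 (1.44, adjusted p = 9.58e-04) and fell for Mapt (-0.51, adjusted p = 0.0241). It changed for 0 of the 15 cytoskeletal, adhesion and Notch genes and fell for 1 of the 8 neural crest genes, Erbb3 (-0.67, adjusted p = 0.0284). These genes were named because they were called here, after their values were seen.

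**Figure D4:**
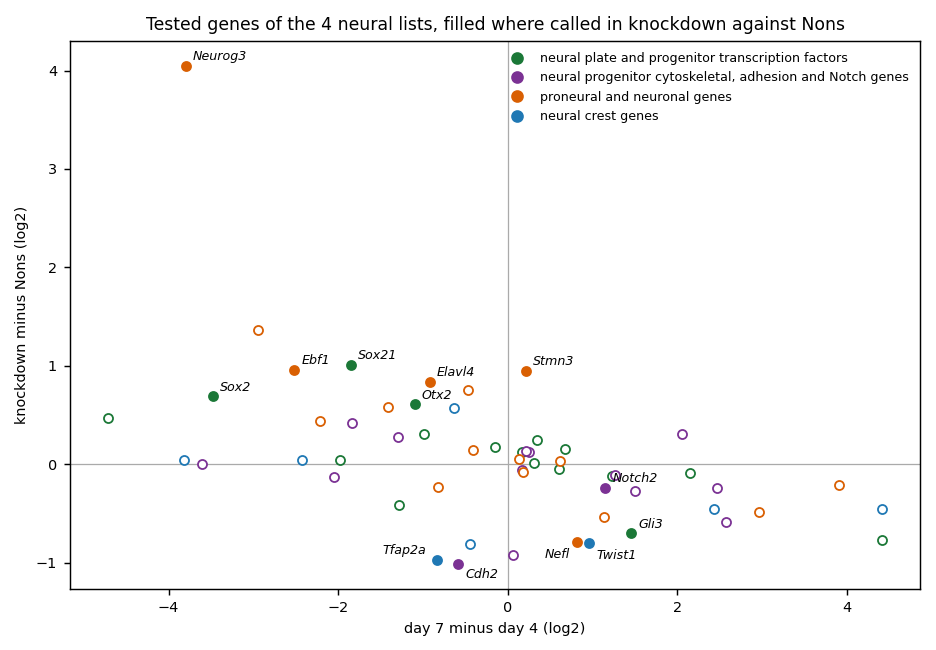
Change from day 4 to day 7 (horizontal axis, log2) against the change in knockdown relative to Nons (vertical axis, log2) for each tested gene of the 4 neural lists, 1 point per gene, filled and named where called in knockdown. Neurog3 lies apart at 4.05, and the other called genes lie between -1.01 and 1.01.

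Markers of other cells changed with day as well as with the hairpins, and their part in the values of the 9 genes was not tested. As above, 6.88% of all tested genes were higher and 4.77% lower in knockdown, and 40.7% rose and 31.7% fell by day 7. Of 11 pluripotency genes 8 were higher in knockdown and 0 lower, with a median change of 1.00, and from day 4 to day 7 9 of the 11 fell. Their summed level was 5430 CPM at Day0, 1120 to 1750 CPM in Nons, 1410 to 2820 CPM with Smarcc1.6 and 1130 to 2320 CPM with Smarcc1.7. None was at 0 reads in a library. Pou5f1 had the most reads of the 11 in each library of days 4 to 7. It was not called in knockdown (0.07, adjusted p = 0.604), so the sums follow the 8 called genes only in part. The 12 mesoderm genes in the table summed to 61.3 to 396 CPM in Nons, 58.5 to 134 CPM with Smarcc1.6 and 53.4 to 110 CPM with Smarcc1.7, and Mesp1, Msgn1, Tbx6 and Hand2 were at 0 reads in some libraries. Of the 7 tested, 1 was higher in knockdown and 2 lower.

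The 7 endoderm genes summed to 5.15 to 33.5 CPM in Nons, 5.08 to 13.7 CPM with Smarcc1.6 and 4.22 to 12.1 CPM with Smarcc1.7, with 1 of the 3 tested lower in knockdown and with Afp and Cer1 at 0 reads in 1 library each. The 7 genes of smooth muscle and fibroblasts summed to 8.08 CPM at Day0, to 11.5, 18.8 and 18.2 CPM on day 4 in Nons, Smarcc1.6 and Smarcc1.7, and to 1060, 1460 and 1390 CPM on day 7. The 9 genes of simple and surface epithelium summed to 11.3 CPM at Day0, to 28.7, 36.1 and 31.5 CPM on day 4 and to 3670, 3320 and 2820 CPM on day 7, with Krt14 and Trp63 at 0 reads in 1 library each. Between days 4 and 7, 6 of 6 and 4 of 6 tested genes of these lists rose, against 40.7% of all tested genes. In knockdown 1 of the 6 of the former was higher and 1 of the 6 of the latter lower, against 6.88% and 4.77%. These sums were higher on day 7 than on day 4 in each group.

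**Figure D5:**
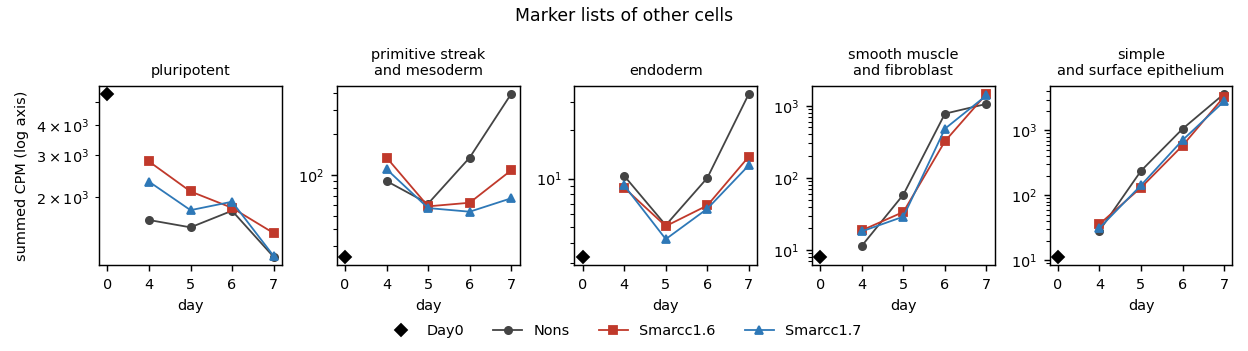
Summed CPM (vertical axes, log scale, each panel on its own) of the 5 marker lists of other cells at Day0 (diamond) and on days 4 to 7 in Nons, Smarcc1.6 and Smarcc1.7, 1 library per point. The pluripotent sum falls from 5430 CPM, the muscle and epithelial sums climb to 1060 CPM or more by day 7, and the mesoderm sum separates Nons (396 CPM) from the hairpins on day 7.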

How the data were processed

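The members and the gene lists were chosen with earlier results of these data known. The authors made TruSeq libraries, sequenced 75 bp from both ends (NextSeq500), used trim_galore for trimming, aligned with tophat or hisat2 to mm10 masked at strain differences, and counted reads per gene in Seqmonk. The submitters' processing notes list TopHat2 2.0.12 and bcl2fastq. The annotation release, the strand setting and the aligner of each library are not given in the sources used here. The deposited values were log2 CPM of mapped reads, made by the authors, with both alleles together. In each library 100% of low values (up to 50 reads) were whole multiples of 1 read within 0.01, so reads and depth were recovered. The table gives 0.9 reads in place of 0, and 3 reads were taken as the floor.

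Groups and days came from the sample titles. Genes whose log2 CPM averaged 0 or more in 12 libraries were fitted with limma 3.58.1 in R 4.3.3 (lmFit, eBayes with a trend) and adjusted by Benjamini-Hochberg at 0.05, an adjusted p under it being a call. Knockdown and the hairpins were fitted with day as a factor, days with group as a factor, and the interaction as knockdown times day beside the day factor. Day0 entered no test. Ratios of reads carry exact binomial 95% intervals. The fits were tested on simulated data. Promoter windows came from RefSeq and hairpins from the study's oligo list. All 13 columns of values were used. Genes named were the 9, Smarcc1, and, per neural list, up to 4 called in knockdown in each direction and the 2 with the largest called rises. Falls of listed genes from day 4 to day 7 were not named. Also named were neural list genes called for the change per day, genes most alike to a member, overlapping genes, markers at 0 reads and Pou5f1. Alternatives changed the filter, pseudocount (1 CPM), trend, weights, centring, block and libraries. One result for a listed gene is not reported here.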

Additional observations from a re-analysis of the deposited data

Results flagged for a closer look

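Zic1 on day 4 with Smarcc1.6, at a log2 CPM of -5.99 (1 read), lay far below the other 3 days of that hairpin, 1 of 27 groups of 4 libraries with such a value, where chance gives about 1 in 20. Each of these 4 libraries was taken on another day, so they are not replicates of 1 condition. The difference between knockdown and Nons changed over time, by a test of that change in limma, for Sox1 (1.61 log2 units per day), for Sox11 (0.54) and, without the filter, for Zic1 (1.99). The Zic1 call was not checked in alternative fits.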

How the results depend on the processing

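Of 1238 recomputed values, 1012 kept their direction and side of the threshold or, for counts of calls, stayed near the main count. Of the others, 72 lost a call, 22 gained one, 101 counts moved and 31 changed sign. A filter at a mean log2 CPM of 2 left Sox1 out and tested 4 members, so it could not check the Sox1 calls. Knockdown against Nons called 1561 genes and 2 of the members. It called 1 member with a mean log2 CPM of 2 or on log2(CPM + 1), 0 members without the trend, 4 genes and 0 members without the day factor, 57 genes and 0 members with Smarcc1.6 and Nons alone, and 0 genes and 0 members with Smarcc1.7 and Nons alone (2363 genes at an unadjusted p under 0.05 in limma). For Smarcc1.6 (1247 genes, 1 member) it was 2 members without the filter or on log2(CPM + 1), 0 without the trend, and 0 genes and 0 members without the day factor (353 genes unadjusted). For Smarcc1.7 (329 genes) it was 188 genes with the higher filter, 145 without the trend and 0 without the day factor (238 unadjusted). Between the hairpins 2 genes were called without the filter. The interaction (503 genes, 2 members) called 0 members with the higher filter or on log2(CPM + 1), 272 genes and 1 member without the trend, 234 genes and 1 member for days 6 and 7 against 4 and 5, and, with day as a number, chosen after seeing the data, 0 genes and 0 members (682 unadjusted).

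Leaving out 1 library or 1 day, the genes called ranged from 287 to 2003 and the members from 0 to 2 for knockdown, from 178 to 1694 and from 0 to 2 for Smarcc1.6, from 1 to 1052 and from 0 to 1 for Smarcc1.7, from 167 to 611 and from 1 to 2 for the interaction, from 2367 to 4553 and from 1 to 3 for day 5 against day 4, from 8867 to 9678 and from 3 to 4 for day 7 against day 4, and were 2 members for day 7 against day 5. The extremes for knockdown were without day 6 and without Nons on day 4. Signs changed in these fits for Pax6 with Smarcc1.6 (-0.02 to 0.39) and Smarcc1.7 (-0.02 to 0.31), for Smarcc1.6 against Smarcc1.7 in Nes (-0.25 to 0.13), Sox1 (-0.14 to 0.70) and Pax6 (-0.13 to 0.17), for Sox1 from day 4 to 7 (-0.68 to 0.98), for Sox11 from day 5 to 7 (-0.18 to 0.35) and for the interaction of Tubb3 (-0.63 to 0.18) and Nes (-0.10 to 0.77). With voom weights Nes differed between hairpins by 0.01 and Sox1 from day 4 to 7 by 0.27 (0.19 on log2(CPM + 1)), and with centred libraries Sox11 from day 5 to 7 by -0.12. The causes were not tested. The labels give no replicate numbers, and hairpin and Nons libraries were paired by day, which entered the fits as the block.

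With 1 library per group and day, spread between cultures was not measured. Reads were few for Pax3, Zic1, Hes5 and Neurog2, which limits them to counting intervals, and the day 6 libraries differ in the share of reads in genes.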
